A study of Mus musculus with 9 samples.

Results

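Long-term haematopoietic stem cells (LT-HSCs) of old and of young mice were compared without any inhibitor, gene by gene, by RNA sequencing. The comparison used 3 libraries of LT-HSCs from mice over 80 weeks old (aged 1 to 3) and 3 from mice of 10 to 16 weeks (young 1 to 3). A gene entered it when at least 3 of these 6 libraries held at least 10 counts each, which 14072 of the 21939 genes in the table did. Of the other 7867 genes, 326 were at 0 in all 6 libraries. The series also holds 3 libraries of aged cells exposed to 100 µM Rhosin, which blocks activation of the GTPase RhoA; these entered the model only to estimate the spread between replicates.

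All mice were C57BL/6, and no genotype other than the strain is labelled. Bone marrow cells had been sorted by surface antigens: negative for lineage markers, CD34 and Flt3, and positive for Sca1 and cKit. Young and aged cells alike then spent 16 h at 37 degrees in a balanced salt solution with 10% serum, 3% oxygen and 5% CO2, so neither group is freshly isolated cells. By the labels, batch 2 held young 2 and aged 2, batch 3 held young 3 and aged 3, batch 1 held aged 1, and young 1 was spread over batches 1 and 3. The libraries are labelled biological replicates without the number of mice in each, so a p-value measures the spread between these libraries.

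LT-HSCs sit at the top of blood formation: most are quiescent, and each can renew itself and give rise to every blood lineage. In old mice these cells are known to become more numerous and less potent, with output shifted towards platelets and myeloid cells and away from lymphocytes. Known correlates include loss of polarity with high Cdc42 activity, changes in lamin A/C and heterochromatin, and higher transcripts of megakaryocyte-type and adhesion genes such as Selp and Vwf.

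The young libraries differed from the aged ones, and from each other, in ways other than age. The number of genes with a count was 21213, 20446 and 20129 in the young and 15024, 17987 and 15645 in the aged libraries, although the aged libraries were the deeper ones, with totals of 57045939 to 72503142 against 34358101 to 53726683 counts. The groups did not overlap, and the two-sided exact permutation test gave p = 0.1, the smallest value 3 against 3 libraries allow (adjusted p = 0.5 over 10 library measures). Among the 6 libraries, Y-chromosome transcripts were abundant only in young 2 and young 3: Ddx3y had 2577 and 6400 counts there and 0 in young 1 and the aged libraries. Kdm5d, Uty and Eif2s3y had at most 2 counts each in young 1 and in any aged library. The lone young library nearly without these transcripts, young 1, held 13417 CPM (counts relative to library size, TMM-normalised) of the immunoglobulin gene Iglc2, against at most 204 in each of the other 5. Aged 3 held the most transcripts of neutrophils and monocytes, with a sum of 11870 over 17 marker genes (marker sums are in CPM of the total counts, without TMM scaling). The part of these differences in any result was not tested, and sex and age cannot be told apart in young 2 and young 3.

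The antigens of the sort were visible as transcripts, in part. Normalised CPM of Kit, which encodes cKit, was 654, 708 and 258 in the young and 428, 421 and 418 in the aged libraries. Ly6a, the Sca1 gene, was at 447, 651 and 701 in the young and 514, 349 and 423 in the aged libraries. Both were abundant in every library and their groups overlapped. Cd34, although the protein was selected against, was at 86.8, 103 and 7.78 in the young and 68.7, 65.3 and 26.8 in the aged libraries, and Flt3 at 2.78, 1.10 and 21.4 in the young and 3.25, 4.67 and 3.28 in the aged libraries. Cd48, a marker of progenitors that this sort did not use, ran from 0.0551 in young 2 to 168 in young 3, so the young libraries spanned all aged values.

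Adjusted by Benjamini and Hochberg's method over the 14072 genes, edgeR's quasi-likelihood test called 5 genes higher in aged cells (0.0355%) and 0 lower (0%). At an unadjusted p under 0.05 there were 827 higher (5.88%) and 1181 lower genes (8.39%). In 1199 genes (8.52%) every aged library was above every young one, and in 1872 (13.3%) every aged library was below. The median log2 change over all genes was -0.13, and 6338 genes (45%) had a positive one. Other tools moved the counts: DESeq2 called 330 higher and 252 lower genes, and limma-voom with sample weights 5 higher and 9 lower. Leaving out young 3 gave edgeR 61 higher and 2 lower genes, leaving out aged 2 gave 7 and 12, leaving out young 1 gave 8 and 0, and leaving out aged 3 or the treated library aged+Ri 3 gave 1 and 0.

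Many of the 1872 lower genes were faint ones. Among the 1948 genes under 1 CPM on average, 903 (46.4%) had every aged library below every young one, 37 had the opposite, and the median log2 change was -1.97. The filter asks for 10 counts in 3 libraries, so a faint gene near 0 in 1 group entered through the other group alone. The share and the median of these faint genes are therefore in part fixed by the filter. In each range of level from 1 CPM up, the median was between -0.11 and 0.02. The young libraries are also those with more genes detected, and whether these faint counts come from transcripts was not tested. From 1 CPM up, 9.58% of genes were higher and 7.99% lower without overlap. A second set stood out at high levels: of 13 genes over 40 CPM with a log2 change under -3, a limit set after the values were seen, 12 were predicted genes with log2 changes between -4.48 and -4.26, and the other was Iglc2. Gm10800 was the most abundant of the 12, at 40085, 13818 and 12937 in the young and 239.9, 2470.2 and 508 in the aged libraries (edgeR adjusted p = 0.171). Near-identical copies such as these can share reads, so their single values are uncertain, and whether these counts come from transcripts was not tested.

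**Figure D1:**
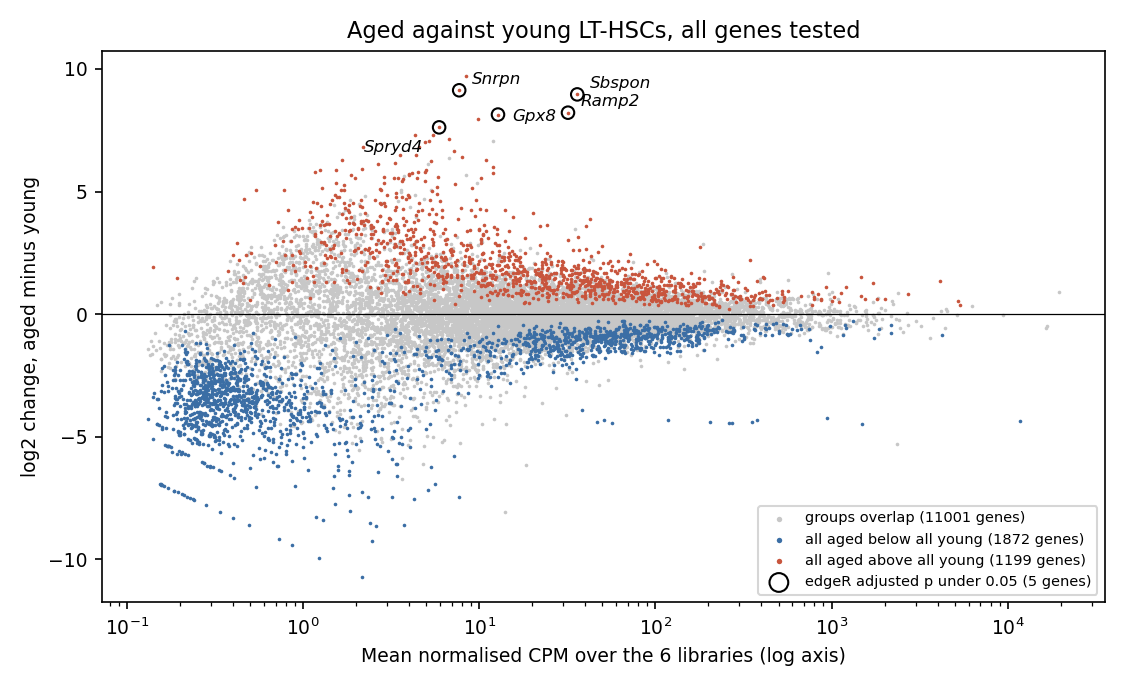
Log2 change of each of the 14072 genes (vertical axis, aged minus young) against its mean normalised CPM over the 6 libraries (horizontal, log axis). Red and blue points are genes whose groups do not overlap (1199 higher, 1872 lower), and the 5 ringed genes passed edgeR's test; 903 of the blue points lie under 1 CPM.

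The 5 genes called higher were nearly undetected in the young libraries and clearly detected in all aged libraries. Sbspon encodes a secreted protein with somatomedin B and thrombospondin domains. Its normalised CPM was 0.122, 0.110 and 0.195 in the young and 71.0, 90.1 and 54.5 in the aged libraries. Every aged library was above 54 CPM and every young one below 0.2, and the fitted difference was 8.96 ± 0.715 on the log2 scale (SE, n = 3 against 3; adjusted p = 0.000188 by edgeR). The difference was 7.21 within batch 2 and 6.31 within batch 3, where 0.5 CPM was added to each value before the logarithm. Each within-batch value, here and below, sets 1 aged against 1 young library. Both of these young libraries are the ones with abundant Y-chromosome transcripts. Sbspon was the 1 gene of the 5 that kept its call in each of the 21 alternative fits, with an adjusted p of at most 0.0333.

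Snrpn is an imprinted gene, expressed from the paternal copy, for a protein of the spliceosome core that is best known from brain. Its values were 0.0203, 0.0551 and 0 in the young and 13.3, 14.1 and 18.7 in the aged libraries, which rest on 3 counts among the young libraries and 2982 among the aged ones. As a ratio of normalised totals this was 619, with a 95% counting interval from 211.7 to 3005, and the adjusted p by edgeR was 0.00972. Snurf, which shares the Snrpn transcript, was at 0 in all libraries.

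Ramp2 encodes the membrane protein that makes the calcitonin receptor-like receptor into an adrenomedullin receptor. It was at 0.345, 0 and 0.279 in the young and 27.6, 64.0 and 99.1 in the aged libraries, a difference of 8.22 ± 1.092 (log2, SE; adjusted p = 0.0159 by edgeR). Its spread within the aged group was wide, with aged 3 the highest. The receptor gene itself, Calcrl, was at 107, 99.0 and 92.0 in the young and 57.8, 77.1 and 38.2 in the aged libraries (log2 -0.78, edgeR adjusted p = 0.362), so its values lay on the opposite side without passing. The related Ramp1 was abundant in both groups, at 624, 572 and 774 in the young and 691, 1216 and 1113 in the aged libraries, with overlap. Calcrl and Ramp1 were chosen as partners of Ramp2 after its values were seen.

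Gpx8 encodes a peroxidase of the endoplasmic reticulum membrane. It was at 0.122, 0.0827 and 0.0558 in the young and 13.5, 32.1 and 30.8 in the aged libraries, a difference of 8.14 ± 1.141 (log2, SE; adjusted p = 0.0225 by edgeR). Spryd4 encodes a small SPRY-domain protein and was at 0.0609, 0.0276 and 0.0837 in the young and 13.6, 10.7 and 11 in the aged libraries, with a difference of 7.62 ± 0.983 (log2, SE; adjusted p = 0.0155 by edgeR). Neither had a young library above 0.2 CPM or an aged library below 10 CPM. Snrpn, Spryd4, Ramp2 and Gpx8 lost their calls when the treated libraries were left out of the fit (edgeR adjusted p = 0.226, 0.271, 0.175 and 0.128), and so they did without aged 3 (0.0522, 0.0644, 0.169 and 0.17) and without aged+Ri 3 (0.0525, 0.0669, 0.0525 and 0.0642). Snrpn, Spryd4 and Gpx8 lost them with sequencing batch as a covariate (0.0937, 0.124 and 0.0952). Gpx8 also lost it without young 1, young 2 or aged 2 (0.0522, 0.0704 and 0.0517) and with the replicate number as a block (0.0503). Over all alternative fits the log2 changes stayed between 8.69 and 10.10 for Snrpn, 7.08 and 7.98 for Spryd4, 7.51 and 9.70 for Ramp2, and 7.64 and 8.92 for Gpx8.

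In GRCm38 with GENCODE vM21, all 5 are protein-coding genes. Sbspon lies on the minus strand of chromosome 1 from 15853862 to 15892722, Snrpn on the minus strand of chromosome 7 from 59982495 to 60140219, and Spryd4 on the minus strand of chromosome 10 from 128209908 to 128211807. Ramp2 lies on the plus strand of chromosome 11 from 101246028 to 101259546, and Gpx8 on the minus strand of chromosome 13 from 113042753 to 113046410. Spryd4 overlaps Gls2 on the opposite strand and Gpx8 overlaps Cdc20b on the opposite strand. Both neighbours had their higher values in young libraries: Gls2 was at 0.507, 0.276 and 0.725 in the young and 0.0782, 0.0561 and 0.0309 in the aged libraries, and Cdc20b had at most 15 counts in any of the 6 libraries. Ramp2 overlaps Vps25 on the same strand, which was at 0.832, 0.551 and 2.01 in the young and 2.06, 1.48 and 1.79 in the aged libraries. Whether strand was used in counting is not given, and reads in the shared stretches cannot be assigned with certainty.

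RefSeq promoter sequences were at hand for 3 of the 5 genes and for Fcor, the gene next in order of p. They are shown because these 4 genes were near 0 in every young and above 5 CPM in every aged library. Each is the 250 bases before the RefSeq start in GRCm38.p6, minus strand, 5′ to 3′, at chr7:60140226-60140475 for Snrpn (1 of 4 starts listed), chr10:128211795-128212044 for Spryd4, chr13:113046389-113046638 for Gpx8 and chr8:3672392-3672641 for Fcor. Capitals mark any match, on either strand, to the TATA motif TATAAA, to the CCAAT box, to the Sp1-type motif GGGCGG or to the TEAD-type motif GGAATG.
Snrpn: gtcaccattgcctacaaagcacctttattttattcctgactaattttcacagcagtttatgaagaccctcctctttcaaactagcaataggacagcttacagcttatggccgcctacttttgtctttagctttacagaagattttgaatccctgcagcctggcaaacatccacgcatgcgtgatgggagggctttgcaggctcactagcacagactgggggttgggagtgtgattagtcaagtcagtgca
Spryd4: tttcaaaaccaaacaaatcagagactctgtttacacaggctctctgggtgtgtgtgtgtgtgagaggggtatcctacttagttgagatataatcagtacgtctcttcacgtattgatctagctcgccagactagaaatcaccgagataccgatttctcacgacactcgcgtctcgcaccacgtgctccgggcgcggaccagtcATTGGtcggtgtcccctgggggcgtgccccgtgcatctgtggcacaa
Gpx8: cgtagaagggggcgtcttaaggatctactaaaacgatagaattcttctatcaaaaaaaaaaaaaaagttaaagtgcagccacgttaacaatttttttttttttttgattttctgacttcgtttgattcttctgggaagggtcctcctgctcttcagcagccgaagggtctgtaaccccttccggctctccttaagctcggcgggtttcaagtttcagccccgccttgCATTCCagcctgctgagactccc
Fcor: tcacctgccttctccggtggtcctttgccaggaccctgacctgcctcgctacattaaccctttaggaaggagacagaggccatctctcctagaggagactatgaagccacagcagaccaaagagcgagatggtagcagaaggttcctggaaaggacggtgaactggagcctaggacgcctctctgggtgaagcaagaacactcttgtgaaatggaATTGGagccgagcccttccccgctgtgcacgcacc

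None of these motifs was common to the 4 windows shown. CCAAT was in those of Spryd4 and Fcor, as in 33.8% of the 32851 RefSeq promoters of the same length. GGAATG, the core that TEAD factors bind, was in that of Gpx8, as in 12.6% of all. TATAAA (in 12.4% of all) and GGGCGG (in 32.7%) were in none of the 4 windows. The E-box CANNTG, left in lower case, was in those of Spryd4 and Fcor, as in 66.2% of all; the cores searched for CREB (TGACG), AP-1 (TGANTCA), RUNX (TGTGGT) and GATA factors (AGATAA) were in none. The promoters of Spryd4, Gpx8 and Fcor held 16, 10 and 8 CG pairs, against a median of 6 over all promoters. The Snrpn window shown held 3. It precedes the RefSeq start that lies 6 bases from the GENCODE start of the gene. Snrpn has 4 listed starts, and CG pairs and motifs before the others were not examined. The count of 3 therefore holds for this window and not for every Snrpn promoter. A match is a match of letters and says nothing of binding.

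Beyond the 5 called genes, a wider set had the same shape. Under 0.5 CPM in every young and over 5 CPM in every aged library, a rule set after the values were seen, lay 19 genes, and 0 genes had the opposite pattern. The 5 called genes were among the 19. Fcor, whose product represses Foxo1, was at 0, 0.0551 and 0 against 18.6, 7.72 and 23.9 CPM (young against aged), from 2 and 3385 counts. That ratio was 1055, its 95% counting interval ran from 291.7 to 8711, and the adjusted p by edgeR was 0.0631. Rpp40, a subunit of RNase P and RNase MRP, was at 0.426, 0.248 and 0.418 in the young and 23.0, 31.5 and 16.5 in the aged libraries. The methyltransferase gene Trdmt1, whose product modifies tRNA, was at 0.426, 0.138 and 0.251 in the young and 11.1, 16.2 and 37.4 in the aged libraries. Neither group came near the other, yet edgeR's adjusted p was 0.108 for both. Cxcl16 and Lefty1, which encode a chemokine and a TGF-beta family antagonist, belonged to the 19 as well.

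**Figure D2:**
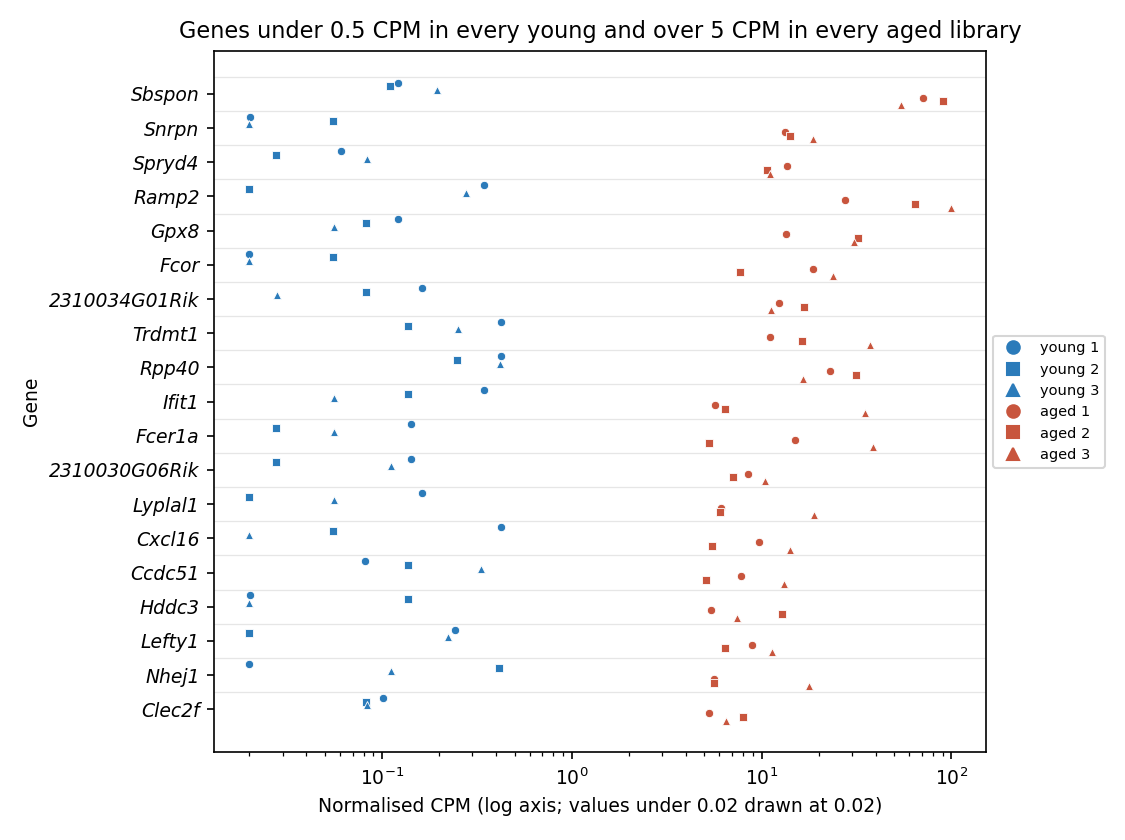
Normalised CPM per library (horizontal, log axis, values under 0.02 drawn at 0.02) of the 19 genes under 0.5 CPM in every young (blue) and over 5 CPM in every aged library (red); circles, squares and triangles are replicates 1, 2 and 3. Sbspon and Ramp2 reach the highest aged values, and the gap between the colours holds by the rule.

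The other genes with the smallest p on the higher side did not pass. Eya4, a transcriptional coactivator and phosphatase, was at 0.589, 0.331 and 0.390 in the young and 20.5, 24.3 and 25.6 in the aged libraries (log2 5.74 ± 0.92, edgeR adjusted p = 0.0636). The calmodulin-binding protein gene Nrgn was already expressed in young cells, at 88.5, 152 and 130.3 in the young and 449, 520.5 and 734 in the aged libraries (log2 2.20 ± 0.38, edgeR adjusted p = 0.0994). Eif2b3 encodes the gamma subunit of eIF2B, the exchange factor that recharges the initiation factor eIF2. It was at 2.03, 4.11 and 0.474 in the young and 46.6, 41.5 and 27.0 in the aged libraries (log2 4.12 ± 0.76, edgeR adjusted p = 0.108). Avpi1 was at 17.7, 11.6 and 18.1 in the young and 81.9, 62.0 and 59.9 in the aged libraries. The synaptogyrin gene Syngr1 was at 0.974, 0.0827 and 0.223 in the young and 20.1, 21.9 and 18.1 in the aged libraries. In each of these 5 genes the groups did not overlap, which the rule for naming them required.

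Aged 3 led some of these genes. The antiviral gene Ifit1 was at 0.345, 0.138 and 0.0558 in the young and 5.71, 6.41 and 35.2 in the aged libraries, and Fcer1a, the alpha chain of the IgE receptor, at 0.142, 0.0276 and 0.0558 in the young and 15.1, 5.27 and 38.7 in the aged libraries (edgeR adjusted p = 0.108 for both). The ciliary gene B9d1 was at 0.142, 0.138 and 0.139 in the young and 15.2, 2.92 and 24.7 in the aged libraries, and Fam98c at 0.0609, 0.0276 and 0.112 in the young and 6.82, 2.56 and 23.4 in the aged libraries. Each had its highest value in aged 3. Fcer1a is a marker of mast cells and basophils, and the sum of 8 such markers was 94.0, 3.25 and 99.6 in the young and 23.3, 51.8 and 302 in the aged libraries. Of the 4 markers tested, 1, Fcer1a itself, had groups that did not overlap, while Mcpt8, on the scale of that sum, was at 0.0372, 2.64 and 34.3 in the young and 0.0138, 0 and 56.9 in the aged libraries. The part of such cells in the Fcer1a values was not tested.

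On the lower side, 20 genes were named by the smallest p among those without overlap, predicted genes left out. Pan3, the adaptor subunit of the PAN2-PAN3 deadenylase that starts poly(A) tail shortening, came first at 184, 182 and 181 in the young and 56.6, 68.1 and 55.0 in the aged libraries (log2 -1.61 ± 0.32, edgeR adjusted p = 0.13). The young libraries were close to each other, and the aged ones were all well below them. Tab2, an adaptor that brings the kinase TAK1 to ubiquitin chains, was at 145, 190.3 and 157 in the young and 71.5, 66.1 and 55.9 in the aged libraries (log2 -1.35, edgeR adjusted p = 0.171). Smad4, the SMAD common to TGF-beta and BMP signals, was at 156, 136 and 129 in the young and 56.4, 65.3 and 39.5 in the aged libraries (log2 -1.39, edgeR adjusted p = 0.194). None of the lower genes passed the test.

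Bcl6, a transcriptional repressor, was at 61.4, 70.1 and 53.2 in the young and 18.6, 16.6 and 12.2 in the aged libraries (log2 -1.96). Klf3, a zinc-finger repressor, was at 189.5, 175 and 114 in the young and 50.7, 65.4 and 69.9 in the aged libraries. Med13, of the Mediator kinase module, was at 79.7, 132 and 121 in the young and 29.5, 51.3 and 29.6 in the aged libraries. Cpsf6, a subunit of the factor that selects poly(A) sites, was at 288, 171 and 234 in the young and 99.1, 108 and 73.5 in the aged libraries. In each of these the aged libraries were the low ones, which the rule for naming them required. The kinase gene Hipk3 was at 254, 245 and 217 in the young and 89.2, 125 and 86.2 in the aged libraries. The phosphodiesterase gene Pde3b was at 217, 135 and 237 in the young and 70.1, 76.6 and 62.1 in the aged libraries. The protein kinase C gene Prkcd was at 184, 233 and 104 in the young and 61.0, 73.6 and 45.6 in the aged libraries. Again no aged library reached the lowest young one, by the same rule. The folliculin partner Fnip1 was at 248, 370.1 and 209 in the young and 103, 125 and 73.4 in the aged libraries. Il17ra, a chain of the interleukin 17 receptor, was at 97.6, 101 and 119.7 in the young and 48.2, 37.6 and 33.3 in the aged libraries. These 9 genes had log2 changes between -1.96 and -1.25, each with an edgeR adjusted p between 0.182 and 0.198. Nfasc, an adhesion molecule of the L1 family, was nearly undetected in the aged libraries, at 7.12, 4.96 and 19.4 in the young and 0.0261, 0.337 and 0.0464 in the aged libraries. Its relative Nrcam had 816 counts over the young libraries, most of them in young 2, and 3 over the aged ones.

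**Figure D3:**
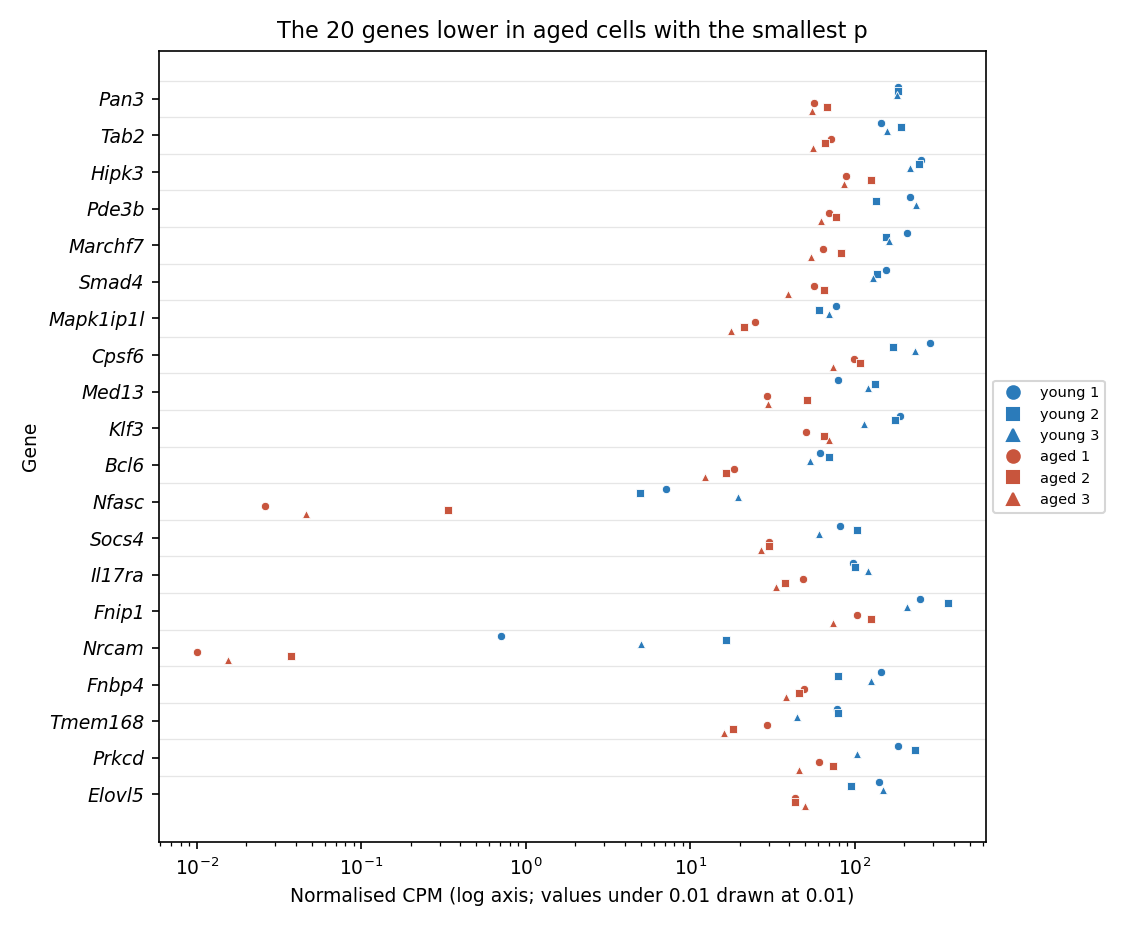
Normalised CPM per library (horizontal, log axis, values under 0.01 drawn at 0.01) of the 20 genes with the smallest p among those whose aged libraries (red) all lie below the young ones (blue), predicted genes left out; circles, squares and triangles are replicates 1, 2 and 3. Pan3 has young values of 181 to 184 and aged values of 55.0 to 68.1, and none of the 20 passed edgeR's adjusted test.

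The genes named as higher and as lower had transcripts of different length. The longest annotated transcript had a median of 1729 bases among the 20 genes named on the higher side and 5541 bases among 19 of the 20 on the lower side. Over the 9682 genes with at least 5 CPM and a length, split by length into 5 classes of nearly equal size from short to long, the median log2 change was 0.32, 0.18, -0.08, -0.26 and -0.40. Of the shortest class, 18.2% of genes had non-overlapping groups on the higher and 3.56% on the lower side, and of the longest class 3.25% and 14.4%. Within batch 2 the medians went from 0.54 in the shortest to -0.43 in the longest class, and within batch 3 from 0.28 to -0.26. A median change also followed base composition, from -0.31 in the class lowest in GC to 0.17 in the highest, and it went from 0.04 to -0.12 within batch 2 and from -0.21 to 0.33 within batch 3. With an offset for transcript length in each library, an alternative added after this was seen, edgeR called 5 genes, the same 5. The part of library quality in the length relation was not tested.

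**Figure D4:**
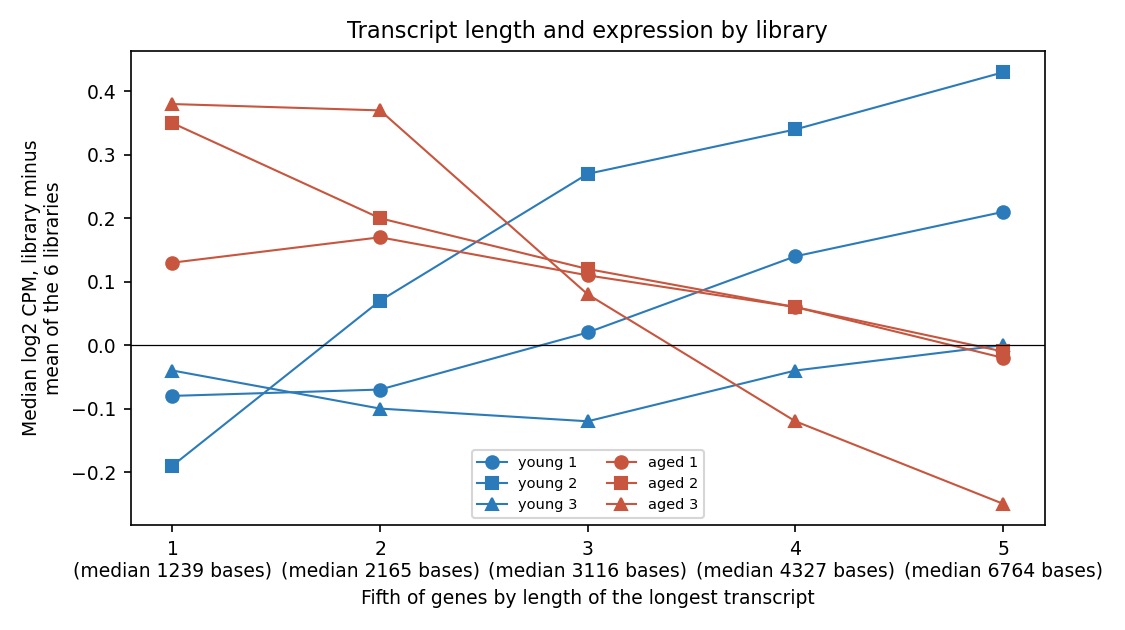
Median deviation of log2 CPM from the mean of the 6 libraries (vertical axis) in 5 equal classes of genes by length of the longest transcript (horizontal, short to long); each line is 1 library, young in blue and aged in red. In the shortest class the aged libraries lie between 0.13 and 0.38 and the young ones between -0.19 and -0.04; in the longest the aged ones lie between -0.25 and -0.01, young 1 and young 2 at 0.21 and 0.43, and young 3 at 0, level with aged 1 and aged 2.

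A list of 88 genes that earlier studies are known for finding higher in aged HSCs was read against this background. Its contrast with all genes is no independent test, since the list was chosen with earlier results of these data known. Of its 85 tested members 63 were on the higher side and the median log2 difference was 0.72, where 45% of all genes were on the higher side and their median was -0.13. Groups did not overlap in 28 members on the higher side (32.9%, against 8.52% of all genes) and in 6 on the lower side (7.06%, against 13.3%). Over all genes from 1 CPM up the shares were 9.58% and 7.99%. These are a second background for this list and the lists below, since faint genes raise the lower share over all genes. Sbspon, Ramp2 and Gpx8 passed the test. The list's median was 0.38 within batch 2, 1.25 within batch 3, 0.69 when young 1 alone stood for the young group, and 0.68 with offsets for transcript length. It was positive in all 24 alternatives. Leaving out young 3 lowered it to 0.47, the lowest of the fits that leave out a library.

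Surface and adhesion genes of the list had 24 of 29 members positive and a median of 0.85. Cd9, a tetraspanin, was at 793, 746 and 744 in the young and 1409, 1819.6 and 1728 in the aged libraries (log2 1.12 ± 0.28, edgeR adjusted p = 0.198). Selp, the P-selectin gene, was at 13.7, 15.9 and 7.47 in the young and 44.7, 29.0 and 28.9 in the aged libraries. Both had groups that did not overlap, and neither passed. Procr, the gene of the endothelial protein C receptor EPCR, was at 64.0, 104 and 46.9 in the young and 138, 83.7 and 74.3 in the aged libraries. Slamf1, which encodes CD150, was at 15.4, 3.50 and 0.92 in the young and 7.99, 15.0 and 34.7 in the aged libraries. Both overlapped.

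Among secreted and matrix proteins 4 of 6 tested members were positive. Vwf, the von Willebrand factor that marks platelet-biased HSCs, was at 16.1, 40.6 and 9.31 in the young and 168, 120.0 and 73.3 in the aged libraries (log2 2.45 ± 0.64, edgeR adjusted p = 0.198). Enzymes and detoxification genes had 10 of 12 positive with a median of 1.80. Of these, Mt1, a metallothionein, was at 98.6, 36 and 6.19 in the young and 346, 376 and 214 in the aged libraries, and the glutathione transferase Gstm2 at 0.0812, 0.110 and 18.5 in the young and 82.6, 87.1 and 53.5 in the aged libraries (edgeR adjusted p = 0.202 and 0.346). Gstm2 was near 0 in 2 young libraries and not in young 3, which shows the spread inside the young group. Both were picked after their values were seen.

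Genes of the membrane, cytoskeleton and signalling had 12 of 17 positive and a median of 1.11. Plscr2, a phospholipid scramblase, was at 259.5, 205 and 179 in the young and 443, 552 and 813 in the aged libraries (log2 1.49 ± 0.33, edgeR adjusted p = 0.164). Pdzk1ip1, a small membrane protein gene used as an HSC reporter, was at 1252, 993 and 788 in the young and 2899, 2465 and 1879 in the aged libraries. Cavin2, a caveola coat gene, was at 81.1, 42.0 and 29.9 in the young and 131, 129.5 and 70.0 in the aged libraries. Every aged library exceeded every young one in Plscr2 and Pdzk1ip1 and not in Cavin2. Transcription factors and regulators had the smallest median of the 5 roles, with 13 of 21 positive, a median of 0.27 and one of -0.21 within batch 2. Nupr1, a stress-induced nuclear protein, was at 1066, 754 and 478 in the young and 2337, 2693 and 1438 in the aged libraries (log2 1.49 ± 0.33, edgeR adjusted p = 0.171), and Tsc22d1 at 883, 1442 and 985 in the young and 1714, 1839 and 1918 in the aged libraries.

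A list of 38 genes reported lower in aged HSCs had 14 positive members and a median of -0.36, beside 45% and -0.13 for all genes. Groups did not overlap in 1 member on the higher side (2.63%) and 3 on the lower (7.89%), against 8.52% and 13.3% of all genes and 9.58% and 7.99% of those from 1 CPM up. The helicase gene Blm was at 21.2, 39.2 and 28.6 in the young and 6.72, 0.449 and 9.58 in the aged libraries. Satb1, a chromatin organiser of lymphoid genes, was at 40.8, 10.1 and 108 in the young and 7.08, 12.3 and 14.5 in the aged libraries, so that young 2 overlapped the aged libraries. Within batch 2 the list's median was 0.34.

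**Figure D5:**
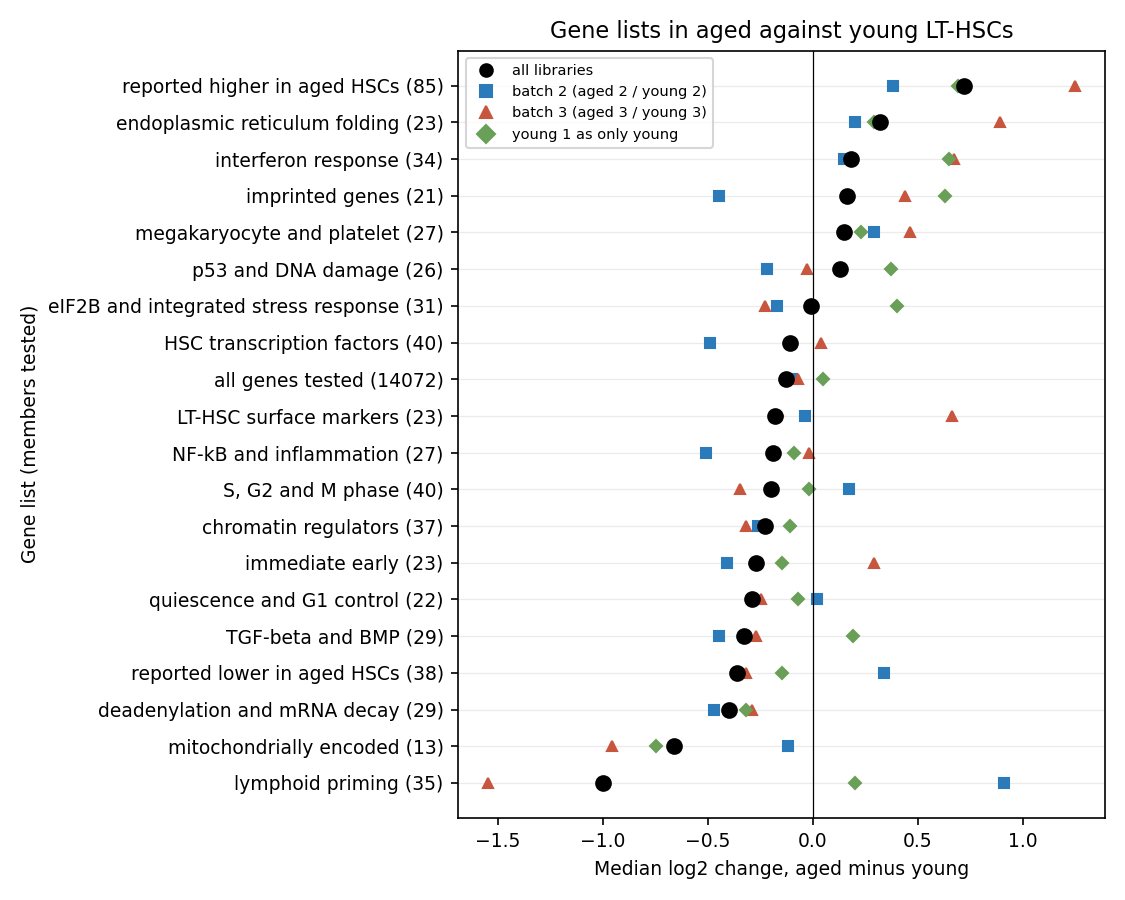
Median log2 change, aged minus young, of the gene lists described and of all genes tested (number of members tested in brackets): black circles use all libraries, blue squares only batch 2, red triangles only batch 3 and green diamonds young 1 alone as the young group. The genes reported higher in aged HSCs lie furthest right at 0.72, and lymphoid genes run from -1.55 in batch 3 to 0.91 in batch 2. Each batch value sets 1 aged against 1 young library.

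Transcription factors that define HSCs were close to all genes in the median, with a smaller share of positive members. Of 40 tested factors 12 were positive (30%, against 45% of all genes). The median was -0.11, against -0.13, with another sign in 4 of 24 alternatives and a value of -0.49 within batch 2. Groups did not overlap in 3 on the higher side (7.5%) and 8 on the lower side (20%), against 8.52% and 13.3% of all genes. Gfi1b, a repressor of the erythroid and megakaryocytic lineages, was at 17.8, 68.0 and 46.5 in the young and 169, 123 and 82.4 in the aged libraries (edgeR adjusted p = 0.239). Tcf15, a factor of quiescent HSCs, was at 0.852, 2.98 and 9.40 in the young and 22.9, 16.9 and 38.5 in the aged libraries. Hoxb5, a reporter gene of long-term HSCs, was at 52.5, 8.02 and 22 in the young and 78.2, 67.9 and 60.0 in the aged libraries. These 3 were the ones higher in every aged library. On the lower side, Msi2, an RNA-binding protein that sustains HSCs, was at 109.7, 127 and 124 in the young and 80.8, 59.2 and 63.3 in the aged libraries. Hoxb4 was at 29.6, 57.3 and 24.6 in the young and 19.8, 9.50 and 16.3 in the aged libraries. The Helios gene Ikzf2 was at 113, 191 and 106 in the young and 48.0, 88.9 and 22.7 in the aged libraries. All aged libraries were below all young ones in the 3, which had edgeR adjusted p of 0.333, 0.385 and 0.352.

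LT-HSC surface markers had 11 of 23 positive and a median of -0.18, which was above 0 in 5 of 24 alternatives, 0.66 within batch 3 among them. Groups did not overlap in 0 on the higher and 2 on the lower side (8.7%), against 8.52% and 13.3% of all genes. One of the 2 was Cxcr4, the receptor that holds HSCs in the marrow, at 99.1, 263 and 209 in the young and 96.9, 74.1 and 64.5 in the aged libraries (log2 -1.28 ± 0.37, edgeR adjusted p = 0.215). Young 1 and aged 1 were close in it. Esam, an adhesion molecule of HSCs and endothelium, was at 35.7, 41.8 and 20.6 in the young and 64.9, 41.6 and 108 in the aged libraries, with overlap.

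Megakaryocyte and platelet genes, the lineage towards which old HSCs lean, had 14 of 27 tested members positive and a median of 0.15. Groups did not overlap in 5 on the higher side (18.5%), namely Vwf, Selp, Cd9, Gfi1b and Tmem40, and in 2 on the lower side (7.41%), against 8.52% and 13.3% of all genes. Vwf, Selp and Cd9 were also counted in the list reported higher in aged HSCs, so the lists are not separate results. F2r, the thrombin receptor gene, was one of the lower pair, at 182, 146 and 141 in the young and 60.0, 105 and 81.2 in the aged libraries. With the replicate number as a block the list's median was -0.02.

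Lymphoid genes depended on the library. The list had 10 of 35 positive and a median of -1.0, with 1 member higher (2.86%) and 2 lower (5.71%) without overlap, against 8.52% and 13.3% of all genes. The median was -1.55 within batch 3 and 0.91 within batch 2. Without young 3 it was 0.10, and 0.20 when young 1 alone stood for the young group. Il2rg, the common chain of several interleukin receptors, was the member higher in every aged library, at 44.9, 20.8 and 17.0 in the young and 67.5, 85.3 and 154 in the aged libraries (edgeR adjusted p = 0.219). Ccr9, a chemokine receptor of thymus-seeding progenitors, was at 10.1, 34.1 and 12.6 in the young and 3.45, 3.68 and 2.71 in the aged libraries. Ikzf1, the Ikaros gene, was at 152, 100.1 and 154 in the young and 69.5, 88.6 and 45.4 in the aged libraries. Both were lower in every aged library. Transcripts of mature B and plasma cells varied at the same time, with a marker sum of 14970, 1014 and 2841 in the young and 88.0, 2453 and 1640 in the aged libraries, and their part in the list was not tested.

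Neutrophil and monocyte markers summed to 1076, 1638 and 4062 in the young and 688, 473 and 11870 in the aged libraries (exact permutation p = 1). Groups overlapped in all 16 tested members of that list. On the same scale, without TMM, the granule protease gene Elane was at 162, 240.4 and 997 in the young and 109, 109 and 4671 in the aged libraries, so it made up much of the sum in aged 3. Erythroid markers summed to 714, 54.9 and 146 in the young and 75.2, 41.3 and 16.8 in the aged libraries. T and NK markers summed to 152, 146 and 314 in the young and 114, 326 and 495 in the aged libraries. Macrophage and dendritic markers summed to 71.9, 99.3 and 232 in the young and 127, 228 and 562 in the aged libraries. The smallest exact permutation p of these sums was 0.2. In bulk libraries, fewer cells of a type and less RNA per cell cannot be told apart.

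Of 13 genes of the lamina and nuclear envelope 3 were positive and the median was -0.61, which was negative in all 24 alternatives. Lmna, the lamin A/C gene, was at 3.69, 6.62 and 17.1 in the young and 0.0261, 1.38 and 2.95 in the aged libraries (log2 -2.65 ± 1.32, edgeR adjusted p = 0.378). It was low in every library and lowest in aged 1, where 2 counts were found. Tmpo, which encodes the lamin-binding LAP2 proteins, was at 185, 145 and 229.6 in the young and 92.0, 143 and 113 in the aged libraries. Banf1, a DNA-bridging factor of the envelope, was at 320.0, 189 and 262 in the young and 346, 494 and 383 in the aged libraries. Tmpo was lower and Banf1 higher in every aged library, and neither passed.

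Chromatin regulators had 12 of 37 positive, a median of -0.23, and 2 higher (5.41%) and 5 lower (13.5%) without overlap, against 8.52% and 13.3% of all genes. The HP1 gamma gene Cbx3 was at 123, 104 and 107 in the young and 52.7, 56.7 and 55.9 in the aged libraries (log2 -1.01 ± 0.36, edgeR adjusted p = 0.258). The H3K9 methyltransferase gene Suv39h2 was at 0.203, 0.110 and 0.279 in the young and 3.58, 8.0 and 0.819 in the aged libraries, nearly undetected in the young ones. Imprinted genes had 12 of 21 positive and a median of 0.16, with 4 higher (19%) and 3 lower (14.3%) without overlap, against 8.52% and 13.3% of all genes. The higher ones were Snrpn, Ndn, Cdkn1c and Tssc4. Within batch 2 the imprinted median was -0.45.

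TGF-beta and BMP genes, which act on HSC quiescence, had 11 of 29 positive and a median of -0.33, with 3 higher (10.3%) and 2 lower (6.9%) without overlap, against 8.52% and 13.3% of all genes. Ligands and receptors had a median of 0.28, which was -0.25 with the stricter filter, -0.09 without aged 1 and -0.50 among members at 50 CPM or more, and SMADs and feedback genes one of -0.50. Smad2 was on the other side from Smad4, at 22.1, 21.1 and 23.9 in the young and 43.4, 66.6 and 65.4 in the aged libraries (log2 1.38 ± 0.42, edgeR adjusted p = 0.227). Bmpr2, a type II receptor, was at 258, 347 and 124 in the young and 136, 105 and 78.1 in the aged libraries, with overlap. When young 1 alone stood for the young group, the list's median was 0.19.

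Genes of protein folding in the endoplasmic reticulum had 14 of 23 positive and a median of 0.32, positive in all 24 alternatives, with 6 higher (26.1%) and 1 lower (4.35%) without overlap, against 8.52% and 13.3% of all genes. Gpx8 belongs to them. Pdia6, a protein disulphide isomerase, was at 45.9, 24.3 and 48.9 in the young and 110.3, 115 and 268 in the aged libraries (log2 2.05 ± 0.59, edgeR adjusted p = 0.21). Xbp1, the factor spliced by IRE1 in the unfolded protein response, was at 59.1, 89.4 and 78.4 in the young and 114, 171 and 441 in the aged libraries. Sdf2l1 was at 2.82, 0.0276 and 1.20 in the young and 14.5, 5.37 and 8.98 in the aged libraries. Aged 3 was the highest for Pdia6 and Xbp1. Without aged 3 the list's median was 0.33.

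eIF2B and integrated stress response genes had 15 of 31 positive and a median of -0.01, with 5 higher (16.1%) and 2 lower (6.45%) without overlap, against 8.52% and 13.3% of all genes. Besides Eif2b3, the asparagine synthetase gene Asns was at 41.5, 13.8 and 49.97 in the young and 145, 149.8 and 138 in the aged libraries (log2 2.04 ± 0.52, edgeR adjusted p = 0.198). The 3 aged libraries lay within 138 to 150 CPM in it. Eif2ak4, the kinase GCN2 that senses uncharged tRNA, was at 66.6, 65.6 and 31.3 in the young and 24.3, 29.9 and 4.99 in the aged libraries.

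Interferon-response genes had 20 of 34 positive and a median of 0.18, with 5 higher (14.7%) and 0 lower (0%) without overlap, against 8.52% and 13.3% of all genes. Effectors had a median of 0.55, and sensors and transcription factors one of -0.19. Ifi27, a small mitochondrial protein, was at 37.8, 24.0 and 37.4 in the young and 54.0, 119 and 129 in the aged libraries. The pro-apoptotic Xaf1 was at 21.3, 0.607 and 6.80 in the young and 45.9, 53.3 and 77.3 in the aged libraries. The guanylate-binding Gbp2 was at 8.26, 17.0 and 1.34 in the young and 54.2, 28.5 and 32.2 in the aged libraries. Together with Ifit1 and Oas3 these are the 5, and their edgeR adjusted p values were 0.233 for Ifi27, 0.246 for Xaf1 and 0.278 for Gbp2. Without young 1 or without aged 3 the list's median was 0.07 and 0.09.

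NF-kB and inflammation genes had 9 of 27 positive, a median of -0.19, and 0 higher and 4 lower (14.8%) without overlap, against 8.52% and 13.3% of all genes, whose median was -0.13. Il6ra, the interleukin 6 receptor, was at 28.1, 38.2 and 40.8 in the young and 7.79, 7.83 and 10.3 in the aged libraries (log2 -2.05 ± 0.67, edgeR adjusted p = 0.239), and the chemokine Ccl4 at 850.4, 859 and 1359 in the young and 669.8, 602 and 201 in the aged libraries. Immediate early genes, which respond to handling and culture, had 9 of 23 positive, a median of -0.27, and 2 higher (8.7%) and 4 lower (17.4%) without overlap, against 8.52% and 13.3% of all genes. The nuclear receptor gene Nr4a1 was at 6.58, 13.6 and 13.6 in the young and 3.31, 1.48 and 3.15 in the aged libraries. Junb was at 22.8, 34.5 and 25.5 in the young and 8.46, 12.3 and 17.1 in the aged libraries. The phosphatase gene Dusp2 was at 59.4, 68.9 and 64.9 in the young and 33.2, 27.8 and 29.2 in the aged libraries. All 3 were lower in every aged library. Myc was at 5.01, 15.1 and 3.15 in the young and 27.3, 16.1 and 30.0 in the aged libraries, where young 2 and aged 2 almost met.

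The 13 mitochondrially encoded genes all had negative log2 changes, with a median of -0.66, and 7 were lower without overlap (53.8%, against 13.3% of all genes). mt-Nd2, which encodes part of respiratory complex I, was at 1291, 1243 and 1221 in the young and 337, 651 and 507 in the aged libraries (log2 -1.33 ± 0.36, edgeR adjusted p = 0.202). mt-Atp6, of the ATP synthase, was at 6303, 4979.9 and 5013 in the young and 2425, 4362 and 2198 in the aged libraries. These genes took 4.68%, 4.14% and 4.47% of each young library's counts and 2.71%, 3.54% and 2.57% of each aged one's (exact permutation p = 0.1, the smallest possible; adjusted p = 0.5). Within batch 2 the list's median was -0.12, level with the -0.10 of all genes. Within batch 3 it was -0.96, against -0.07 of all genes. With length offsets the median was -0.94.

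Genes of deadenylation and mRNA decay had 10 of 29 positive, a median of -0.40, and 2 higher (6.9%) and 6 lower (20.7%) without overlap, against 8.52% and 13.3% of all genes, Pan3 among the lower. Pnrc1 was at 395, 350.1 and 286 in the young and 202, 237 and 213 in the aged libraries, and the CCR4-NOT deadenylase Cnot8 at 101, 88.1 and 157 in the young and 160.1, 172 and 226 in the aged libraries on the other side. With offsets for transcript length the list's median was -0.15, level with the -0.14 of all genes.

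Cell cycle genes lay on both sides. Of 40 genes of S, G2 and M phase 16 were positive, the median was -0.20, and 0 were higher and 5 lower (12.5%) without overlap, against 8.52% and 13.3% of all genes. Pole, the catalytic subunit of DNA polymerase epsilon, was at 80.5, 31.1 and 40.8 in the young and 15.1, 11.2 and 22 in the aged libraries. The ribonucleotide reductase subunit Rrm1 was at 86.3, 45.9 and 47.7 in the young and 23.9, 30.8 and 29.5 in the aged libraries. The spindle checkpoint kinase Bub1 was at 11.1, 14.3 and 25.5 in the young and 0.117, 2.60 and 5.67 in the aged libraries. In these 3 the aged libraries lay below the young ones, and none passed. The list's median was 0.17 within batch 2 and -0.35 within batch 3. Among 22 genes of quiescence and G1 control the median was -0.29, with 9 positive, and 3 higher (13.6%) and 2 lower (9.09%) without overlap, against 8.52% and 13.3% of all genes. Cdk4, the G1 kinase, was at 71.0, 138 and 91.1 in the young and 197, 248 and 285 in the aged libraries (log2 1.28 ± 0.33, edgeR adjusted p = 0.198). p53 and DNA damage genes had 15 of 26 positive and a median of 0.13, with 4 higher (15.4%) and 2 lower (7.69%) without overlap, against 8.52% and 13.3% of all genes. Bax, the pro-apoptotic target of p53, was at 14.5, 42.2 and 52.9 in the young and 93.7, 69.7 and 56.6 in the aged libraries. Gadd45g was at 26.4, 54.1 and 30.2 in the young and 116, 54.8 and 101 in the aged libraries. Both were higher in every aged library, by a small margin at the closest pair.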

How the data were processed

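Libraries of sorted LT-HSCs were made from total RNA with SMART-Seq v4 and Nextera XT, per the labels' protocols. The deposited table holds estimated counts per gene, of which 71.6% to 80.9% per library are whole numbers within 0.005; per the submitters' processing notes, the tools used included cutadapt 1.18, STAR 2.7.0, SAMtools 1.14, featureCounts and R 4.2.0 with GRCm38 (mm10), and how fractional values arose is not given in the sources used here. Values were rounded here to whole counts.

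Genes with at least 10 counts in at least 3 of the 6 young and aged libraries were tested with edgeR 4.0.16 in R 4.3.3 (TMM, robust quasi-likelihood fit, all 9 libraries, 6 residual degrees of freedom, two-sided), with Benjamini-Hochberg adjustment over the 14072 genes and a threshold of 0.05. For library measures, groups were set against each other with an exact two-sided permutation test (scipy 1.17.1). DESeq2 1.42.0 and limma 3.58.1 served as alternatives. The fit was tested on simulated data.

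Counts were 34358101 to 72503142 per library, so that 3 counts correspond to 0.0414 to 0.0873 CPM; counting intervals cover counting error only. Batch 1 gives no value of its own, since no young library lies in it alone. Members and gene lists were chosen with earlier results of these data known. Named are the called genes, up to 20 genes per direction with the smallest p among those without overlap and with at least 5 CPM in the higher group, up to 6 members per list with the smallest p, the most abundant member of each role, and the sort markers. Predicted genes were left out of the 20. The results of 1 gene list are not reported here.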

Additional observations from a re-analysis of the deposited data

How the results depend on the processing

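The number of called genes depended on the method. Against 5 calls (5 higher, 0 lower), DESeq2 made 582 (330 higher, 252 lower; 1044 genes had no adjusted p), limma-voom with sample weights 14 (9 of them lower), the newer edgeR quasi-likelihood method 21 (9 higher, 12 lower) and edgeR without a filter on low counts 20 (19 higher, 1 lower). Only the 2 groups in the fit gave 1 (higher), and young 1 as the only young library gave 262 (230 higher, 32 lower). Leaving out each library in turn gave 1 to 63 calls, 1 to 61 higher and 0 to 12 lower. Of the 5 genes, DESeq2 called 5, limma-voom 3 and the newer method 2. The cause was not tested.

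With the replicate block edgeR called 5 genes, 4 of them among the 5. Same-numbered young and aged libraries correlated in their deviations at 0.00479, -0.0877 and 0.0963, none above 0.1. By the labels, replicates 2 and 3 of both groups share a sequencing batch and replicates 1 do so in part. With sequencing batch as a covariate 5 genes were called, 2 of them among the 5.

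Differences in summed marker CPM (aged minus young, without TMM scaling) that changed sign were those of neutrophil and monocyte markers, from 2085 to -1678 without aged 3 (range -1678 to 4021 over the libraries left out), mast and basophil markers, from 60.23 to -28.05 without aged 3 (range -28.05 to 111.5), and stromal and endothelial markers, from 5.659 to -7.736 without young 3 and -2.227 without aged 2 (range -7.736 to 15.31). Of 105 genes followed through the alternative fits, 0 changed sign. Many of them were named for a small p or for groups without overlap, so a change of sign was unlikely from the start. These fits did not include the comparisons within a batch, which were among the alternatives for the lists. Esam, for example, had a log2 change of 1.13 in the main fit, -0.01 within batch 2 and 2.36 within batch 3. Among the lists reported, medians changed sign in at least 3 of 24 alternatives for eIF2B and stress-response genes (12), LT-HSC surface markers (5), HSC transcription factors (4), S, G2 and M phase genes (4), lymphoid genes (3), p53 genes (3) and quiescence genes (3).

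The median standard error (log2) was 1.57 among genes under 1 CPM, 1.51 from 1 to 5 CPM and 0.32 from 200 CPM up; what depth contributes to it was not tested.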
